A study of Homo sapiens with 15 samples.

Results

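Very wide RUVBL2 peaks are the 208 peaks, of 109607 in the RUVBL2 list, chosen by their own width, above 5000 bp, so their widths describe the choice and are no finding. RUVBL2, also called reptin, is an AAA+ ATPase that pairs with RUVBL1 in ring-shaped assemblies inside the INO80, SRCAP and TIP60 chromatin remodelling complexes. These complexes move nucleosomes or exchange histones, and SRCAP in particular deposits the histone variant H2A.Z. Centromeres are built on long arrays of satellite DNA, repeats in many near-identical copies, and such repeats spread into the flanking pericentromeric chromatin.

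All chromatin was from MDA-MB-231, a long-established human cell line derived from triple-negative breast cancer. The ChIP samples carry no knockdown in their labels and were grown in the same medium. Chromatin immunoprecipitation with sequencing (ChIP-seq) gave 1 peak list with an antibody to RUVBL2, 2 replicate lists with a handmade antibody to H3K4ox, the oxidised form of lysine 4 of histone H3 that LOXL2 produces, and 1 with an antibody to H2A.Z. The other 11 samples, 1 input, 8 RNA-seq and 2 ATAC-seq libraries with control, LOXL2 or RUVBL2 short hairpins, were not analysed here. Positions are in hg19 and counted from 1, sequencing depth is unknown, and each score is the value the authors' peak caller gave, used only within its own list.

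A single RUVBL2 library allows no test across samples, so each difference below is a description, and none was tested. Intervals are 95% Wilson intervals for counting error, and they treat peaks as independent although many lay side by side. Wide peaks also meet other peaks more often by their size alone. The header of the RUVBL2 list, like that of H2A.Z, names no input, whereas the H3K4ox headers do.

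The wide peaks made up 0.19% of the RUVBL2 list and 1.32% of the bases it covered, 1619 kb of 122560 kb. Their widths ran from 5002 to 24620 bp with a median of 6237.5 bp, against a median of 869 bp in the rest of the list. Many were only just past the threshold: 97 measured at most 6000 bp, 68 exceeded 7500 bp, 36 exceeded 10000 bp and 5 exceeded 20000 bp. The narrowest members were 5002, 5008 and 5011 bp wide, with scores of 363, 677 and 675. The widest peaks left out were 5000, 4999 and 4995 bp wide, with scores of 508, 588 and 429.

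Scores of the wide peaks were mostly high but spread over the whole range of the list. They ran from 50.1 to 3100 with a median of 488, against 419.5 in RUVBL2 peaks over 3000 and up to 5000 bp and 73.3 in the rest of the list as a whole. The median member outscored 99.0% of all RUVBL2 peaks. At the upper end, 13 members scored 1000 or more, of which 9 met H3K4ox peaks of both replicates and 8 met H2A.Z. At the lower end, 9 members scored under 100 although their median width was 12313 bp. None of these 9 met H3K4ox in both replicates, and 8 met H2A.Z. Over all 208 members the shares with both H3K4ox replicates and with H2A.Z were 57.7% and 56.7%. Over all RUVBL2 peaks they were 63.2% and 11.8%. Of the 13 and the 9, 9 and 7 lay within 1 Mb of a stretch of at least 1 Mb without a peak in any list, against 54.8% of all members. Width and score were nearly unrelated over the 208 members, with a Spearman correlation of -0.17 across peaks of 1 library.

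More than any other place, the wide peaks lay next to long stretches without a peak in any of the 4 lists. There were 27 such stretches of at least 1 Mb, 22 inside chromosomes and 5 at the starts of chromosomes 13, 14, 15, 21 and 22, together 217.4 Mb. Stretches of this kind include the centromeres, which the assembly leaves largely unresolved. Of the 208 members, 114 (54.8%, interval 48.0 to 61.4) lay within 1 Mb of a stretch. Among all RUVBL2 peaks the share was 2.46%, and among RUVBL2 peaks over 3000 and up to 5000 bp it was 5.94% (5.17 to 6.82). Inside the zone, 69 of the 114 members were within 100 kb of a stretch (60.5%, 51.4 to 69.0), against 53 of 187 RUVBL2 peaks over 3000 and up to 5000 bp (28.3%, 22.4 to 35.2) and 430 of all 2581 of 5000 bp or less (16.7%, 15.3 to 18.1). Within 10 kb lay 23 members, against 7 and 36 of the same narrower peaks, and within 100 bp lay 16 members, against 2 and 10. The edge of a stretch is by definition where a peak of some list ends or begins.

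**Figure D1:**
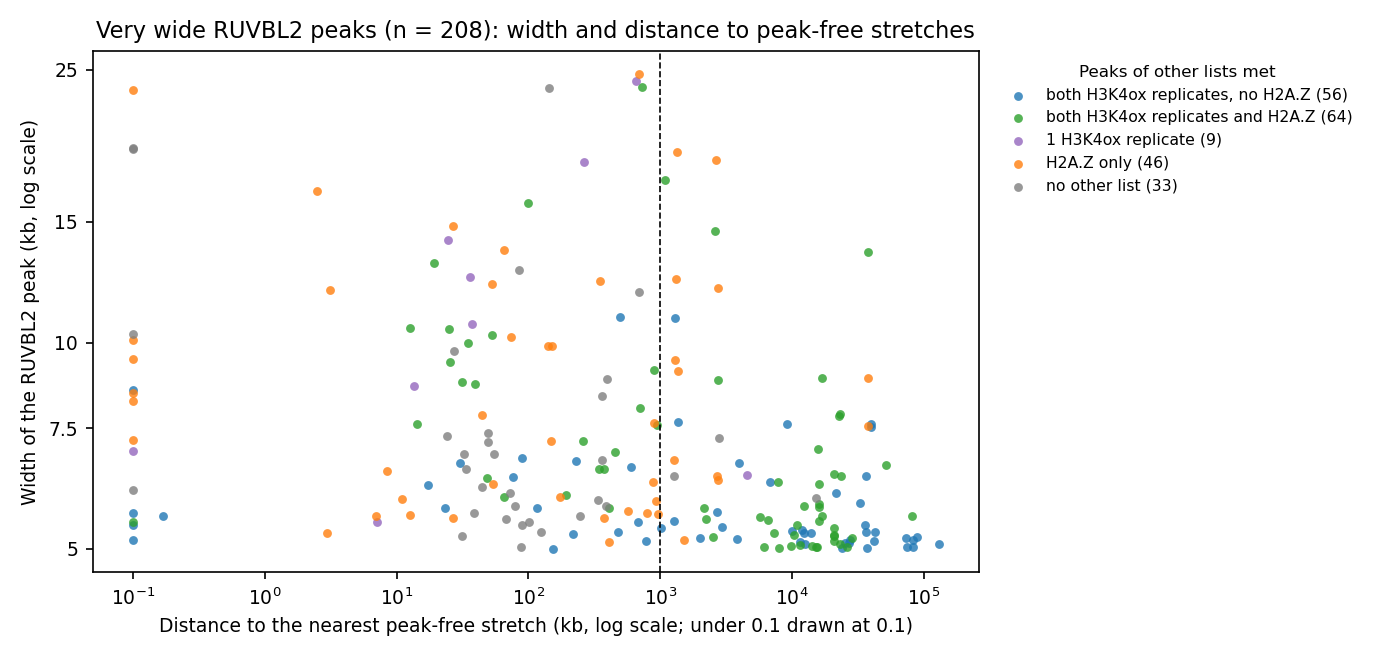
Each point is 1 of the 208 very wide RUVBL2 peaks, with the distance to the nearest peak-free stretch of at least 1 Mb on the x axis (kb, log scale) and the width of the peak on the y axis (kb, log scale); colour gives the other lists whose peaks it met, and the dashed line marks 1 Mb. The 28 peaks over 10 kb within 1 Mb of a stretch stand to the left of the line, and only 8 such peaks stand to its right.

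At chromosome ends the share of members could not be told apart from that of the whole list, which lay inside its interval. A single member, on chromosome 18 at 105707 to 111645 with a score of 115, lay within 1 Mb of a chromosome end (0.48%, interval 0.08 to 2.67), against 1.43% of all RUVBL2 peaks. It met no peak of another list. The remaining 93 members fell into 27 that stood in groups of 3 or more with neighbours at most 100 kb apart, and 66 that stood elsewhere.

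Members next to peak-free stretches were broader than the 66 elsewhere and more often shoulder to shoulder. The 66 by definition stood in no group, whereas the 114 include members of groups. The 114 had a median width of 6875 bp and a median score of 424, against 5290 bp and 560.5 for the 66. Within 250 bp of another RUVBL2 peak lay 54 of the 114 (47.4%), against 12 of the 66 elsewhere (18.2%). The 27 in other groups were broader still, with a median of 7263 bp, and 17 of them (63.0%) lay this close. Among all 94 members away from the stretches 29 (30.9%) did. In RUVBL2 peaks over 3000 and up to 5000 bp the share was 14.5%. Of the 10 widest members, 8 lay in these zones. The widest of all were a pair on chromosome 2 at 89830305 to 89854924 (score 232) and 89856292 to 89880411 (score 658), which stood in the same zone 1367 bp apart.

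The largest group lay directly before the peak-free stretch of chromosome 7. Between 57938960 and 58054473 lay 9 members, 5603 to 16000 bp wide, which covered 81.0% of the 115.5 kb, and 15 RUVBL2 peaks in all covered 93.4%. The last of the 9 ended on the base before the stretch. Their scores ran from 112 to 671. H3K4ox of both replicates met 2 of the 9, H2A.Z met 5, and 3 met no other list. With the far side of the stretch included, chromosome 7 held 19 of the 114, the most of any stretch, and chromosome 10 followed with 16.

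Chromosome 10 held 10 members before its stretch and 6 after it. Before it, 7 members between 39076369 and 39154968 scored 152 to 976, and none met H3K4ox in both replicates. After it, the member at 42596539 to 42602530 (5992 bp, score 2590) met an H3K4ox peak of 5857 bp with a score of 1215 in replicate 1, but of 5765 bp with a score of only 62.9 in replicate 2, and an H2A.Z peak of 5375 bp with a score of 1054. The member at 42660758 to 42667934 (7177 bp, score 2074) met all 3 as well, with scores of 211 and 169.9 for H3K4ox and 149.9 for H2A.Z. These 3 partner scores exceeded 86.7%, 82.3% and 90.8% of their own lists, while the 62.9 at the first member exceeded 27.5%.

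Members covered more of 2 runs on chromosome 20 than of the group on chromosome 7. Before the stretch, 4 members between 26258620 and 26299863 covered 94.5% of 41.2 kb, with scores of 898, 294, 353 and 371, and all 4 met H2A.Z. Across the stretch on the same chromosome, 3 members between 29803764 and 29833433 covered 88.3% of 29.7 kb, and none of them met H3K4ox. In all, 22 groups held 98 members (47.1%, interval 40.4 to 53.9), of which 16 groups with 71 members lay within 1 Mb of a stretch. Of all members, grouped or not, 54.8% lay in these zones. The grouping was not applied to narrower RUVBL2 peaks on their own, so the grouped share has no such value beside it.

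Of the 10 best-scoring members, 7 lay in these zones, several of them at the very edge of a stretch. On chromosome 18 the peak at 18510749 to 18520838 had the score 3100 and began at the first base after the stretch. The H2A.Z peak over it was 10040 bp wide with a score of 1679, while neither H3K4ox replicate had a peak there. On chromosome 6 the peak at 58773120 to 58780316 (score 1361) ended at the last base before the stretch, and the H2A.Z peak over it was 7238 bp wide with a score of 1559, again without H3K4ox. These were the only 2 of the 208 at which the widest H2A.Z peak began and ended within 100 bp of the RUVBL2 peak.

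At 2 other edges H3K4ox peaks had the score 3100. The chromosome 17 peak at 25262954 to 25268422 (width 5469 bp, score 1682) coincided with H3K4ox peaks of 5474 and 5403 bp, both with the score 3100, and with an H2A.Z peak of 5214 bp and score 88.0. The chromosome 1 peak at 142535289 to 142543822 (width 8534 bp, score 1470) met H3K4ox peaks of 8520 and 8476 bp, both with the score 3100, and no H2A.Z. RUVBL2 without the others appeared on chromosome 8 at 46838739 to 46857998, which was 19260 bp wide with a score of 1815. Among the 16 members within 100 bp of a stretch, 5 met H3K4ox in both replicates, 8 met H2A.Z and 4 met nothing. The 16 were 5147 to 23369 bp wide and scored 82.4 to 3100.

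The share of wide peaks with both H3K4ox replicates was near that of the whole list but below that of the next widest peaks. Of the 208, 120 (57.7%, interval 50.9 to 64.2) overlapped peaks of both H3K4ox replicates, against 63.2% of all RUVBL2 peaks, a value inside the interval. For all RUVBL2 peaks over 4000 bp, members included, the share was 89.6%. Replicate 1, with or without replicate 2, was met by 124 of the 208 (59.6%, 52.8 to 66.1), against 73.2% of all RUVBL2 peaks. Replicate 2, with or without replicate 1, was met by 125 (60.1%, 53.3 to 66.5), against 71.8%. Taken by replicate, the list shares thus lay above the intervals of the members. The next widest RUVBL2 peaks, over 3000 and up to 5000 bp, overlapped both replicates in 97.5% of cases (96.9 to 98.0). The share was lowest next to peak-free stretches, where 42 of 114 members did so (36.8%, 28.6 to 46.0), and was 78 of 94 (83.0%, 74.1 to 89.2) away from them. Narrower RUVBL2 peaks in the same zones were higher, at 67.4% (60.4 to 73.7) for those over 3000 and up to 5000 bp and 61.2% (59.3 to 63.0) for all of 5000 bp or less. Away from the stretches these 2 narrower classes gave 99.4% (99.0 to 99.6), above the members, and 63.2% (62.9 to 63.5), below them.

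**Figure D2:**
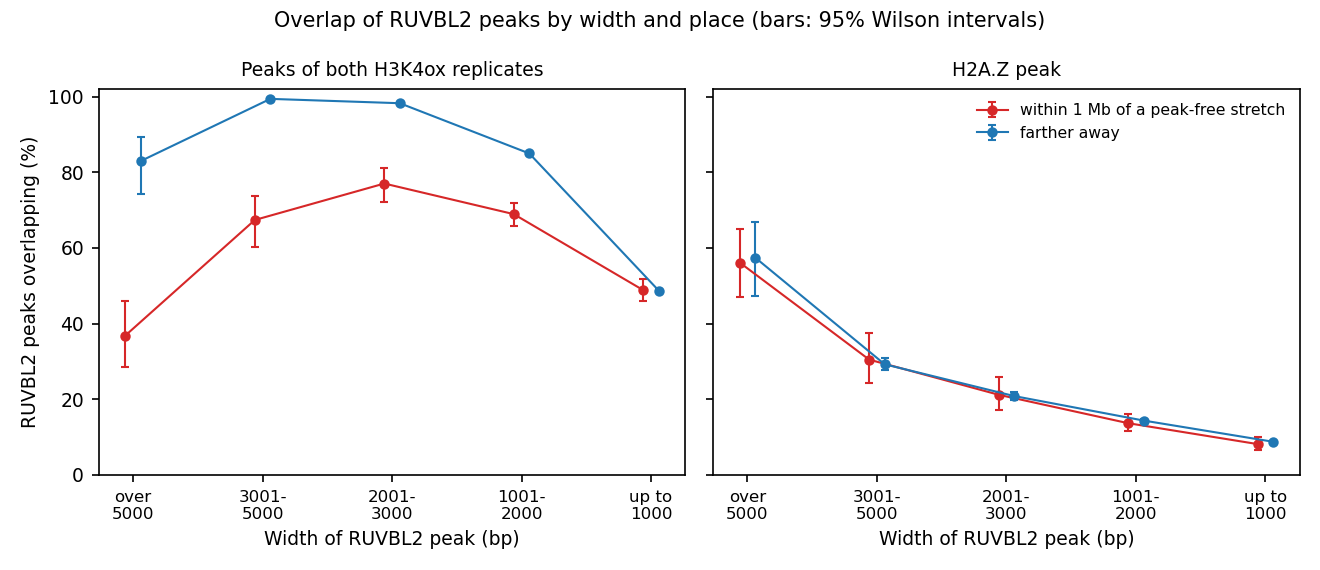
Share of RUVBL2 peaks (%) that overlapped peaks of both H3K4ox replicates (left panel) or an H2A.Z peak (right panel), by width of the RUVBL2 peak (bp, widest class first), within 1 Mb of a peak-free stretch and farther away, with 95% Wilson intervals. Near the stretches the H3K4ox share was 36.8% for peaks over 5000 bp, below each narrower class shown, whereas the H2A.Z share was highest in the widest class, at 56.1% near the stretches and 57.4% farther away.

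H2A.Z stood farther from the whole list, and on the higher side. It overlapped 118 of the 208 members (56.7%, interval 49.9 to 63.3), against 11.8% of all RUVBL2 peaks and 29.3% (27.8 to 30.9) of those over 3000 and up to 5000 bp. The share was alike near peak-free stretches, with 64 of 114 (56.1%), and away from them, with 54 of 94 (57.4%). It was highest in the 27 members of the other groups, at 22 (81.5%, 63.3 to 91.8). The overlap was partial: at the members that met H2A.Z, its peaks covered a median of 37.9% of the RUVBL2 peak, and H3K4ox, where it was met, covered 89.0% and 90.0% in replicates 1 and 2.

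Combined, the lists divided the members by place. Next to stretches, 30 of 114 met no other list, 34 met H2A.Z only, 19 met both H3K4ox replicates without H2A.Z, 23 met both together with H2A.Z, and 8 met a single H3K4ox replicate. Elsewhere, 64 of 66 met both H3K4ox replicates, 30 of them with H2A.Z, and none was without a partner. The 2 exceptions elsewhere were both on chromosome 9, at 66986073 to 66991216 and at 70004276 to 70010674. By distance, both H3K4ox replicates were present at 33.3% of 69 members within 100 kb of a stretch, 42.2% of 45 members from there to 1 Mb, 52.0% of 25 members from 1 to 3 Mb, and 94.2% of 69 members beyond 3 Mb. For H2A.Z the same 4 values were 55.1%, 57.8%, 64.0% and 55.1%.

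**Figure D3:**
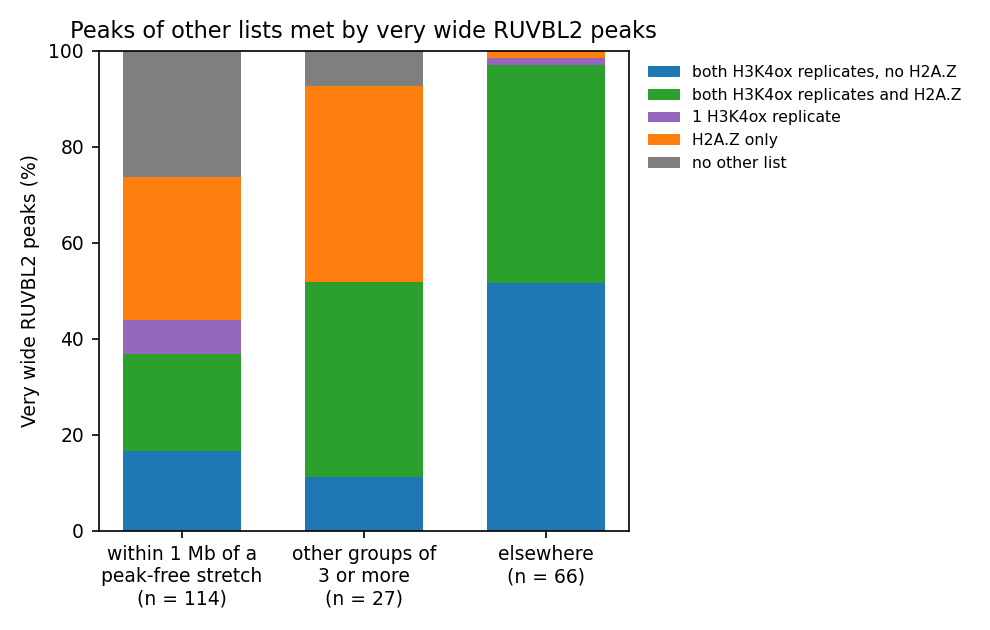
Share of very wide RUVBL2 peaks (%) by the other lists whose peaks they met, for 114 peaks within 1 Mb of a peak-free stretch, 27 peaks in other groups of 3 or more and 66 peaks elsewhere; the single peak at a chromosome end is not drawn. Peaks with H2A.Z only or with no other list made up 34 and 30 of the 114, and 1 and 0 of the 66.

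Where they met, the partner peaks were wider than at narrower RUVBL2 peaks, in part by construction. The widest overlapping peak was taken each time, and a longer RUVBL2 peak can meet more peaks. The widest overlapping H3K4ox peak had a median of 4599.5 bp in replicate 1 and 4146 bp in replicate 2, against 3672 and 3055 bp at RUVBL2 peaks over 3000 and up to 5000 bp and 1371 and 1313 bp at all of 5000 bp or less. Its median score exceeded 97.4% and 97.0% of the scores in its own list, against 97.5% and 97.2% at RUVBL2 peaks over 3000 and up to 5000 bp. H2A.Z partners were narrower, with a median of 2240 bp, against 865 bp at RUVBL2 peaks over 3000 and up to 5000 bp and 845 bp at all of 5000 bp or less, and the median one exceeded 72.5% of H2A.Z scores, against 49.0% at RUVBL2 peaks over 3000 and up to 5000 bp. H3K4ox peaks over 5000 bp lay at 47 members in replicate 1 and 42 in replicate 2 (22.6% and 20.2% of members), against 1.27% and 0.819% of all RUVBL2 peaks. H2A.Z peaks over 5000 bp lay at 16 members (7.69%), against 0.0274% of all RUVBL2 peaks. Shares with partners over 5000 bp were not computed for RUVBL2 peaks over 3000 and up to 5000 bp.

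Seen from the other lists, very wide peaks coincided most for H2A.Z. Of its 32 peaks over 5000 bp, 15 (46.9%, interval 30.9 to 63.6) met a very wide RUVBL2 peak, and 22 lay within 1 Mb of a stretch. H3K4ox had 773 and 528 peaks over 5000 bp, of which 47 (6.08%) and 42 (7.95%) met one. Nearly all the others met narrower RUVBL2 peaks, since 96.4% and 95.3% met some RUVBL2 peak. Of these wide H3K4ox peaks, 9.19% and 11.2% lay within 1 Mb of a stretch. The shares of all H3K4ox and all H2A.Z peaks in these zones were not computed. Among all RUVBL2 peaks the share was 2.46%.

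**Figure D4:**
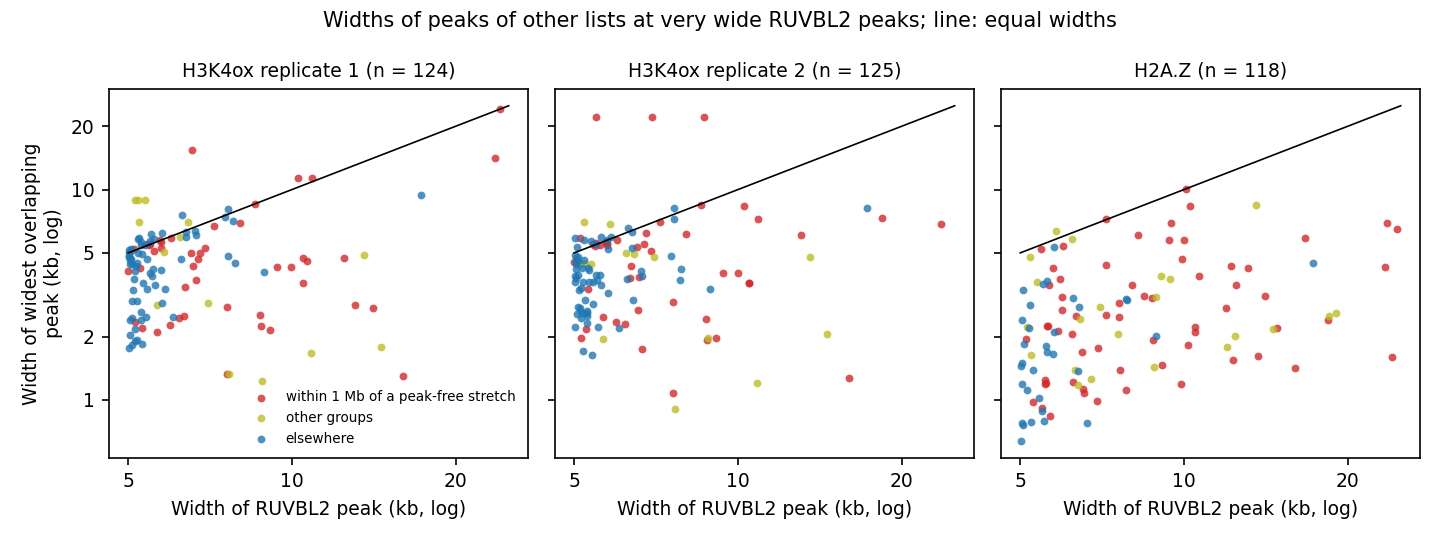
Width of the widest overlapping peak (kb, log scale) against the width of the very wide RUVBL2 peak (kb, log scale), for 124 members with H3K4ox replicate 1, 125 with H3K4ox replicate 2 and 118 with H2A.Z; colour gives the place and the line marks equal widths. H3K4ox peaks were wider than the RUVBL2 peak at 27 and 17 members and H2A.Z peaks at 2.

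Away from the stretches, the wide peaks gathered on chromosomes 6 and 19. Each held 16 of the 66 members elsewhere (24.2%), although they carried 7.26% and 5.40% of all RUVBL2 peaks. On chromosome 19, 13 of the 16 lay between 10590306 and 18939830, in the gene-dense short arm, all 13 with both H3K4ox replicates and 8 with H2A.Z. On chromosome 6, 12 of the 16 lay on the short arm between 17074943 and 57509603, all 12 with both replicates and 8 with H2A.Z. The short arms of chromosomes 19 and 6 thus held 19.7% and 18.2% of the 66, against 3.14% and 3.55% of all RUVBL2 peaks. On the other chromosomes together, 32 of 34 met both replicates and 10 met H2A.Z. Overlap shares of narrower RUVBL2 peaks were not computed by chromosome or arm, so these counts have no such value beside them. Among all the next widest RUVBL2 peaks away from the stretches, 99.4% met both replicates and 29.2% met H2A.Z.

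Members elsewhere were narrower on the whole and none scored low. Their scores ran from 235 to 2192, and only 1 exceeded 10000 bp. That member, on chromosome 16 at 34180058 to 34197316 (17259 bp, score 395), was 1088567 bp from a stretch and so just outside the zone. The next widest, on chromosome 6 at 41965118 to 41973990, measured 8873 bp with a score of 922, and held H3K4ox peaks of up to 4059 and 3364 bp with scores of 630.4 and 632. On chromosome 19 a pair at 50599416 to 50607221 (7806 bp, score 687) and 50617583 to 50625450 (7868 bp, score 621) each met 3 H2A.Z peaks. The chromosome 1 peak at 224199046 to 224204633 (5588 bp, score 1176) met H3K4ox peaks of 5831 and 5933 bp with scores of 1736 and 1609.

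The best-scoring wide peaks away from the stretches stood in a tandem array. In this array on the long arm of chromosome 8, where wide peaks recur between 86562240 and 86838842, 2 members stood at 86727362 to 86734972 (7611 bp, score 2095) and at 86748932 to 86756460 (7529 bp, score 2192), with starts 21.6 kb apart. Both met H3K4ox in both replicates. Over the first, the widest H3K4ox peaks were 4834 bp (score 1721) in replicate 1 and 7282 bp (score 236) in replicate 2. Over the second they were 7389 bp (score 2189) and 4807 bp (score 2625). The broader H3K4ox peak lay over the second member in replicate 1 and over the first in replicate 2, and neither RUVBL2 peak met H2A.Z.

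Beyond these 2, peaks recurred at short steps. The next RUVBL2 peaks wider than 4000 bp began 21.6, 12.2, 15.04, 12.2, 12.2 and 12.3 kb after each other and were 4304, 4297, 4485, 4415, 4408 and 4356 bp wide. Their scores ran from 512 to 975. Over the whole array and its flank up to 86884544, H3K4ox had 10 and 9 peaks of at least 3000 bp in replicates 1 and 2 (medians 4295 and 4232 bp). H2A.Z had 6 such peaks (median 3890 bp) with scores of only 70.4 to 135. The first peak of the array, 4439 bp wide with a score of 1151, began 165.1 kb ahead of the first member, and 153.5 kb between them held no peak in any list.

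**Figure D5:**
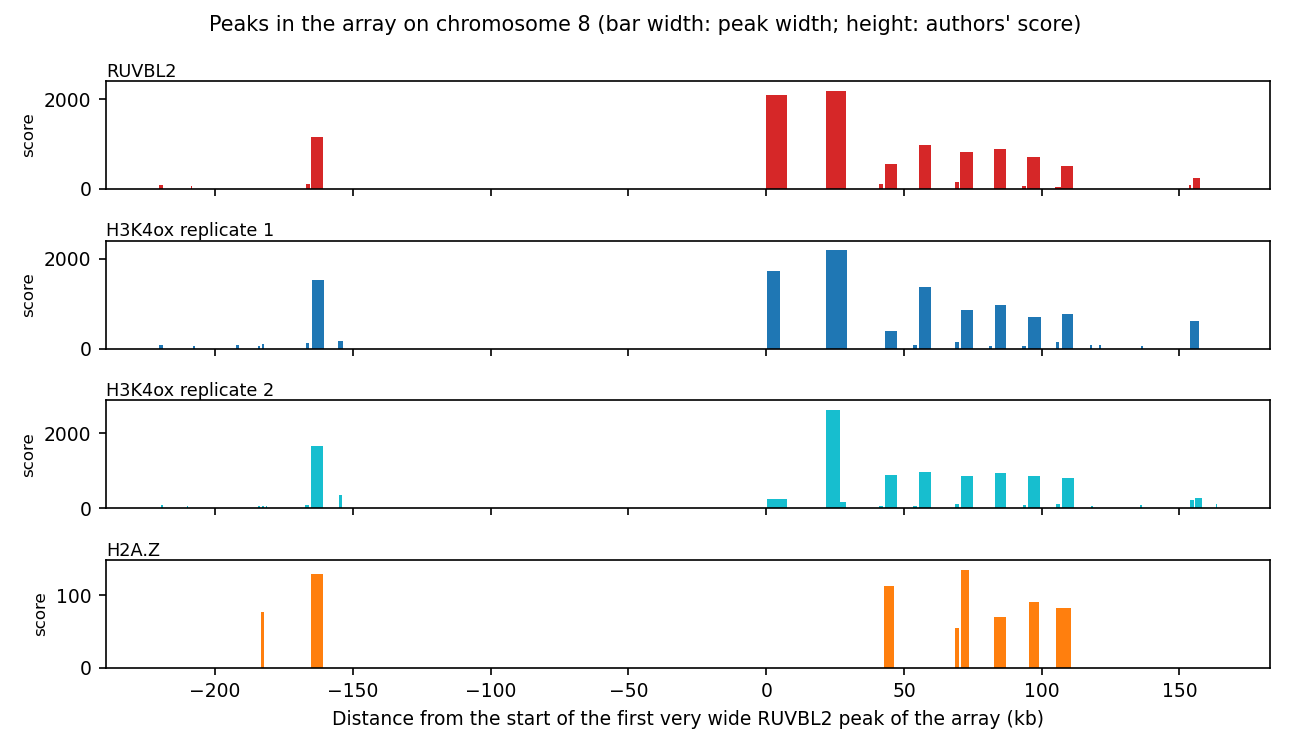
Peaks of the 4 lists in the chromosome 8 array, with the distance from the start of the first very wide RUVBL2 peak on the x axis (kb) and the authors' score on the y axis, scaled separately per list; bar width is peak width. The RUVBL2 peaks of 7611 and 7529 bp are the first bars right of 0, and the narrower ones follow at steps of 12.2 to 21.6 kb.

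Of the 6 groups outside the 1 Mb zones, 3 lay at most 3 Mb from a stretch, on chromosomes 9, 11 and 16. The chromosome 9 group, 4 members between 66767627 and 66836718, met no H3K4ox while all 4 met H2A.Z. The chromosome 11 group, 8 members between 48808729 and 48964272, met both H3K4ox replicates at 3 and H2A.Z at 6. It held the lowest-scoring member of all, at 48931097 to 48949586, 18490 bp wide with a score of 50.1. The chromosome 16 group, 4 members between 33904622 and 34017462, met both H3K4ox replicates at 2 and H2A.Z at 1.

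The other 3 groups stood far from any stretch, and H2A.Z was present at each of their 11 members. On chromosome 2, members of 7548, 8886 and 13573 bp between 132970675 and 133008088 had scores of 497, 1181 and 214. Of these 3, only the widest met H3K4ox, and its widest H2A.Z peak measured 8400 bp. The long arm of chromosome 2 is known to hold the remnant of an ancestral centromere, and whether the group lies on it was not tested. On chromosome 19, 5 members between 48406387 and 48456868 were 5136 to 6439 bp wide with scores of 160 to 511, and 13 RUVBL2 peaks covered 93.3% of the 50.5 kb. All 5 met H3K4ox in both replicates. On chromosome 6, 3 members between 42841279 and 42966492 scored 557, 793 and 669. The first 2 met H2A.Z peaks of 6382 and 5851 bp with scores of 943 and 804, and H3K4ox covered 81.6% to 98.6% of all 3.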

How the data were processed

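Peak lists from ChIP-seq of MDA-MB-231 cells were used for RUVBL2 (1), H3K4ox (2) and H2A.Z (1), grouped by the labels' titles. The deposited peak names carry the word MACS, a peak caller, and no source used here gives its settings. Each H3K4ox replicate has its own list. The header word multilocus is not explained there. Per the submitters' processing notes, the build was hg19, and Bowtie and TopHat were among the tools. Scores are as the authors deposited them, without a stated unit, and started at 50 in each list. Depth per sample is unknown.

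Peak positions were processed in pandas 2.3.3 and numpy 2.4.6 under Python 3.11.15, with scipy 1.17.1 for intervals and matplotlib 3.10.9 for plots. Width was end minus start as deposited, and overlap meant at least 1 shared bp. Wilson intervals are at 95%. Interval functions were tested on simulated data. Members, places and comparisons were chosen with earlier results of these data known. Sites named were the 10 widest and 10 best-scoring members, groups, and the widest in other classes; the text gives part of these, and some further sites were chosen after their values were seen. A peak lay next to a stretch when within 1 Mb of at least 1 Mb without a peak in any list. A chromosome end was taken as the first or last peak of any list on the chromosome. Chromosome starts with a peak-free stretch counted as stretches and not as ends. No genome of hg19 was used here, so genes and sequences are not given.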

Additional observations from a re-analysis of the deposited data

How the results depend on the processing

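Of 40 alternative settings over 8 results, 17 stayed within the interval or spread of the value reported and 23 did not. Above 4000 bp there were 1136 peaks, with 16.4% next to a stretch, 20.2% in groups, 89.6% with both H3K4ox replicates and 39.6% with H2A.Z, and partner medians of 3960 bp (H3K4ox) and 1068 bp (H2A.Z). Above 7500 bp there were 68 peaks, with 70.6% next to a stretch, 0.0% at chromosome ends, 41.2% with both H3K4ox replicates and 75.0% with H2A.Z, whose median was 2992 bp. Joining peaks less than 500 bp apart gave 535 peaks. A zone of 500 kb lowered the share next to a stretch to 47.1%. Stretches of at least 3 Mb lowered it to 38.5%, since several stretches are just under that length. Requiring 50% of the RUVBL2 peak to be covered gave 45.2% for H3K4ox and 23.1% for H2A.Z, and a 200 bp interval at the centre gave 42.3% and 29.3%. The upper 50% of the H2A.Z list by score gave 42.3%. Summed clipped lengths gave partner medians of 4977 bp for H3K4ox and 3090.5 bp for H2A.Z. Other causes were not tested. Leaving out an H3K4ox replicate gave 59.6% to 60.1% overlap and medians of 4146 to 4599.5 bp. Members with a score of at least 100, a setting added after seeing the data, gave 53.8% next to a stretch, 60.3% with H3K4ox and 55.3% with H2A.Z. No paired analysis was possible because the result comes from no test and 1 RUVBL2 library has no numbered partner. With depth unknown, an absent partner peak means only that no peak was called.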

Other observations

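The H3K4ox replicates parted at some of the wide RUVBL2 peaks. At 9 members a single replicate had a peak, and 8 of the 9 lay within 1 Mb of a peak-free stretch. Overlap with a given replicate, whether or not the other was met, was less frequent at members than in the whole RUVBL2 list. Of all RUVBL2 peaks 73.2% met replicate 1, 71.8% replicate 2 and 63.2% both, against 59.6%, 60.1% and 57.7% of members. On chromosome 10, the members at 39132851 to 39141494, 39142439 to 39147915 and 39148014 to 39154968 shared 1 H3K4ox peak of 22180 bp (score 319) in replicate 2 and met none in replicate 1. On chromosome 2 the member at 89856292 to 89880411, 24120 bp wide, met a peak of 24244 bp (score 304) in replicate 1 and none in replicate 2. At the 120 members with both replicates, the wider partner peak had a median of 1.18 times the width of the narrower, and at 11 it was more than 2 times as wide.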
